A study of Rattus norvegicus with 9 samples.

Results

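The change in gene expression between 1 d and 7 d after hypothalamic injury was followed in bulk RNA-sequencing libraries of rat hypothalamus. The comparison set the 3 libraries taken 7 d after PEL surgery directly against the 3 taken 1 d after it, 6 of the 9 libraries of the series, chosen by their titles. All were made from tissue of S-D rats that held the supraoptic nucleus (SON) and the paraventricular nucleus (PVN). PEL is not spelled out in the labels; it stands for pituitary stalk electrical lesion in the published work. The other 3 libraries are labelled Control, with no word on whether those animals were operated on, and they are used here only to show where a gene stood without PEL surgery. Neither the age and sex of the animals nor whether each library is 1 animal is stated, so p-values measure only the spread between these libraries.

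The SON and PVN hold the large magnocellular neurons that make vasopressin and oxytocin. Their axons run down the pituitary stalk and release both hormones from the posterior pituitary, so damage to the stalk harms these axons far from their cell bodies. Injury to axons and tissue is known to switch on early transcription factors, stress proteins and inflammatory signals within hours, and much of this early response fades over days while glial and repair programmes go on. The question of this comparison is which genes moved between the early and the later time, and whether they moved toward the Control level or away from it. In bulk tissue, fewer cells of a type and less RNA per cell cannot be told apart.

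The table gives genes by ID and does not pair IDs with symbols. The rat gene table used here listed no Ensembl IDs, so no ID (0 of 34784 rows) was matched to a symbol. Thus Atf3, Jun, Lgals3, Avp, Oxt and all marker lists could not be looked up, and the labelled tissue was not checked against its markers. Genes are therefore described by size of change, abundance and place relative to Control, and 4 are given by ID. Total counts ranged from 13338433 to 17294334 per library at 1 d, from 17014260 to 18685921 at 7 d and from 18948576 to 21012998 in Control. Pairs of libraries of different lesion times lay 87.6 to 95.5 apart over the tested genes (Euclidean distance of log2 CPM, the scaled counts of a gene per 1000000 of its library), against 58.2 to 66.5 within 1 d and 60.8 to 63.0 within 7 d. Within 1 d, replicate 3 differed more from the other two than these did from each other (chi-square of the counts per degree of freedom 17.3 and 17.4, against 7.07), and without it 5724 genes differed between the times, against 5890 with it (edgeR adjusted p below 0.05). Leaving out replicate 1 or replicate 2 of 1 d instead gave fewer, 4497 and 4496 genes. The Control libraries were less alike, at distances of 63.8 to 87.1.

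From 1 d to 7 d, 5890 of 16954 tested genes changed, which is 34.7% (edgeR quasi-likelihood test on the 6 lesion libraries, Benjamini-Hochberg adjusted p below 0.05). Of these, 2454 genes rose (14.5% of those tested) and 3436 fell (20.3%). The falls were the larger: their median log2 fold change was -0.69, a 1.61-fold decrease, against 0.39, a 1.31-fold increase, for the rises. A change of at least 2-fold was found for 1045 falling genes (6.16% of those tested) and 153 rising genes (0.902%). At least 4-fold changes numbered 166 downward (0.979%) and 18 upward (0.106%). The rises were thus many and small, and the strong changes were mostly decreases. The balance of directions depended on the scaling: falls made up 58.3% of the calls, 68.3% when only library totals were used for scaling and 49.7% with upper-quartile factors.

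**Figure D1:**
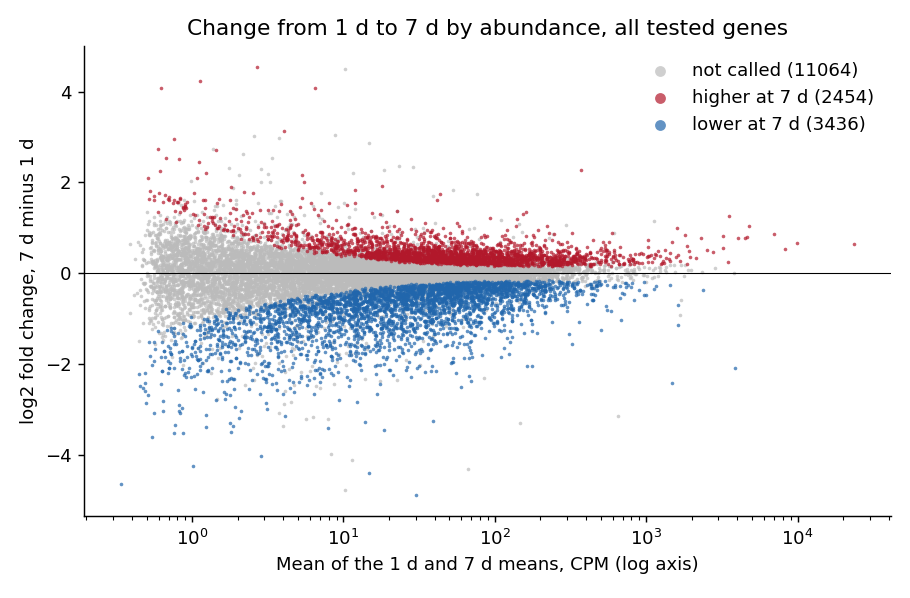
Each point is 1 of the 16954 tested genes, at the mean of its 1 d and 7 d levels in CPM (horizontal, log axis) and its log2 fold change, 7 d minus 1 d (vertical). Red points (2454) were called higher and blue points (3436) lower at 7 d; large changes lie mostly below 0.

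In nearly all called genes the groups were fully separated. The call rests on the same 6 libraries and favours such separation, so this is no separate support for the calls. All 3 libraries of 7 d lay above all 3 of 1 d in 2432 of the 2454 rising genes, and below them in 3420 of the 3436 falling genes. Over all tested genes 48.5% had groups that did not overlap, 22.1% with 7 d above and 26.4% with 7 d below. Leaving out each of the 6 libraries in turn, 3666 genes were called in the same direction every time, 1351 rising and 2315 falling. Of these, 881 had fallen and 70 had risen at least 2-fold. Genes that were not called were partly well bounded and partly unresolved. Of 11064 such genes, 5799 had a 95% interval of the fold change that stayed within 1.5-fold in either direction, while 2772 had an interval that reached beyond 2-fold, so a change of that size is not bounded out for them.

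The 4 genes given by ID are the 2 largest falls and the 2 largest rises among called genes with separated groups and a mean of at least 5 CPM at the higher time. The largest fall was that of ENSRNOG00000058105. Its level was 56.0, 73.9 and 44.8 CPM in the 3 libraries of 1 d and 3.93, 1.72 and 0.225 CPM in those of 7 d. The 3 Control libraries held 1.48, 2.60 and 1.10 CPM. Every 1 d library thus lay above all other libraries, and the 7 d libraries lay on both sides of the Control range. The mean decreased from 58.2 ± 14.6 CPM to 1.96 ± 1.87 CPM (SD, n = 3 each), with 1.73 ± 0.779 CPM in Control. The log2 fold change was -4.88 (SE 0.738, edgeR adjusted p = 0.00962), a 29.5-fold fall. Within 7 d the highest library held more than any Control library and the lowest held less. The low level at 7 d, and with it the size of the fall, is therefore not exactly known. Leaving out 7 d replicates 1, 2 and 3 in turn gave log2 fold changes of -5.92, -4.80 and -4.35.

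ENSRNOG00000061299 had the second largest fall and a like course. It stood at 29.1, 35.2 and 20.1 CPM at 1 d, at 2.49, 0.948 and 0.506 CPM at 7 d and at 0.898, 1.52 and 0.287 CPM in Control. Again the 3 libraries of 1 d were far above the rest, and those of 7 d overlapped Control. The mean moved from 28.1 ± 7.58 to 1.32 ± 1.04 CPM (SD, n = 3 each), and Control was at 0.900 ± 0.614 CPM. The log2 fold change was -4.40 (SE 0.560, edgeR adjusted p = 0.00354), a 21.2-fold fall. The pooled counts, scaled for depth, gave a ratio of 7 d to 1 d of 0.0466 (exact 95% interval 0.0361 to 0.0593, covering counting error only), and for ENSRNOG00000058105 the ratio was 0.0336 (0.0274 to 0.0409). In both genes replicate 2 was the highest library of 1 d and replicate 3 the lowest of each time. Both falls were called in all 18 alternatives of scaling, filter, test and libraries that were run.

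The largest rise was that of Novel01075, an ID outside Ensembl's naming whose gene model is not described in the sources used here. Its level was 0.114, 0.319 and 0.219 CPM at 1 d, 8.59, 6.05 and 0.731 CPM at 7 d and 0.264, 0.162 and 0.191 CPM in Control. All 7 d libraries lay above the other 6, but 7 d replicate 3 was far lower than the other two. The counts behind these levels were small, 10 in the 3 libraries of 1 d together and 270 at 7 d. The mean rose from 0.217 ± 0.103 to 5.12 ± 4.01 CPM (SD, n = 3 each), with 0.206 ± 0.0524 CPM in Control. The log2 fold change was 4.53 (SE 1.12, edgeR adjusted p = 0.0298), a 23.2-fold rise. The call was lost in 6 of the 15 alternatives in which the gene was tested, with adjusted p from 3.72e-08 to 0.247 over all of them. Leaving out any 1 d library ended it (edgeR adjusted p = 0.107, 0.0972 and 0.119 for replicates 1, 2 and 3), as did leaving out 7 d replicate 2 (0.0712), limma-voom (0.247) and no filter on low counts (0.0707). The direction was upward in all 15.

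ENSRNOG00000048561 had the second largest rise, from a low level at 1 d. It was at 0.227, 0.702 and 1.31 CPM at 1 d, at 9.97, 5.45 and 21.5 CPM at 7 d and at 4.49, 1.14 and 1.29 CPM in Control. The 7 d libraries lay above all Control libraries, while 1 d replicate 3 lay inside the Control range and the other 1 d libraries below it. The mean rose from 0.747 ± 0.544 to 12.3 ± 8.29 CPM (SD, n = 3 each), and Control stood between, at 2.31 ± 1.89 CPM. The log2 fold change was 4.08 (SE 0.813, edgeR adjusted p = 0.0161), a rise of 16.95-fold. The call was lost without 1 d replicate 2 (adjusted p = 0.0752) and with limma-voom (0.0741), and held in the other 16 of 18 alternatives (adjusted p 9.49e-06 to 0.0752 over all). This gene differs from the 2 falling genes in that its 7 d level, not its 1 d level, was the one farther from the Control mean.

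**Figure D2:**
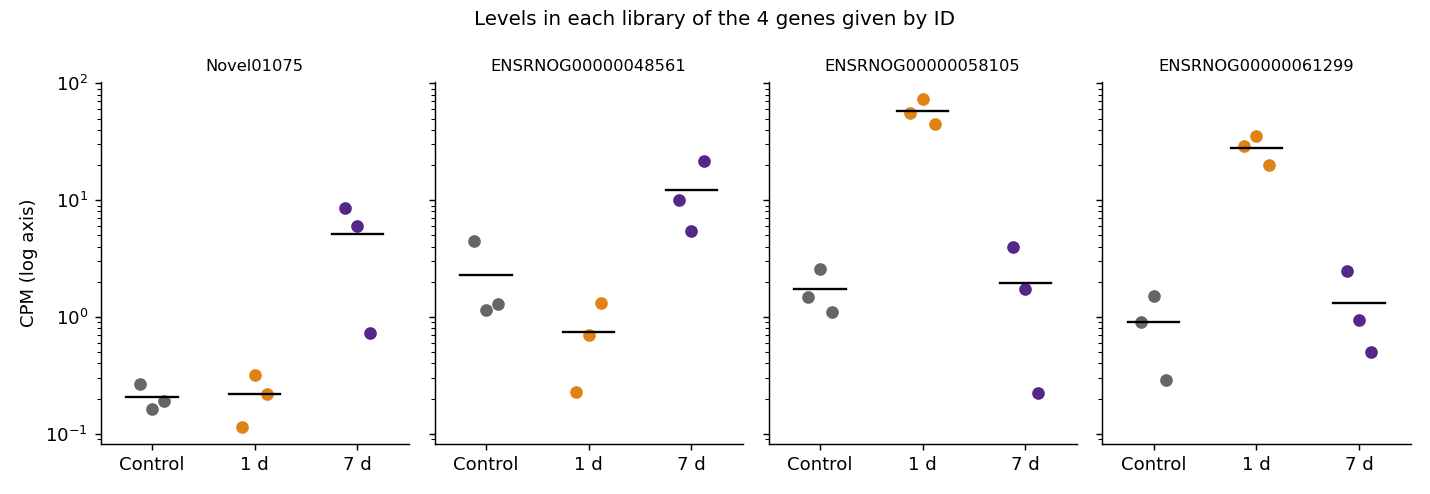
CPM on a log axis in each of the 9 libraries (points, in replicate order from left to right) with the group mean (line), for the 2 largest rises and the 2 largest falls given by ID. ENSRNOG00000058105 and ENSRNOG00000061299 stand high only in the 1 d libraries, while Novel01075 and ENSRNOG00000048561 stand highest in the 7 d libraries.

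For a wider set, the 12 largest changes in each direction were taken by the same rule, which admits a gene by its level at the higher time; where Control lies in them is a description. Among the 12 largest falls under this rule, 6.93- to 29.5-fold, the Control mean was nearer to the 7 d mean than to the 1 d mean in 11. Among the 12 largest rises, 2.94- to 23.2-fold, the Control mean was nearer to the 1 d mean in 10. With each Control library left out in turn these counts were 11 or 12 for the falls and 10 or 11 for the rises. The 12 falls peaked at 5.40 to 70.4 CPM and the 12 rises at 5.12 to 617 CPM. Strong rises were rare above low levels: only 6 of the 18 rises of at least 4-fold had separated groups and reached 5 CPM, against 87 of the 166 falls of that size.

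Over all called genes, the Control mean was nearer to the 7 d mean than to the 1 d mean for 80.9% of the rising genes and 81.2% of the falling genes, and for 67.1% of all tested genes. Without Control replicate 1 the shares were 70.5%, 63.9% and 59.5%. The directions differed with the size of the change. Below 1.5-fold, Control was nearer to 7 d for 86.0% of the rises and 70.1% of the falls. Among changes of at least 2-fold, Control was nearer to 7 d for 956 of 1045 falls (91.5%) and for 86 of 153 rises (56.2%). Among changes of at least 4-fold it was nearer to 7 d for 151 of 166 falls (91.0%) and for 8 of only 18 rises. These shares moved with single Control libraries. Without Control replicate 1 they were 80.2% of the 2-fold falls and 44.4% of the 2-fold rises, and over the 3 Control libraries left out in turn they ranged from 80.2 to 94.0% and from 44.4 to 58.2%. The share of 2-fold falls was the higher with each Control library left out. The difference between the directions is a description and was not tested.

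**Figure D3:**
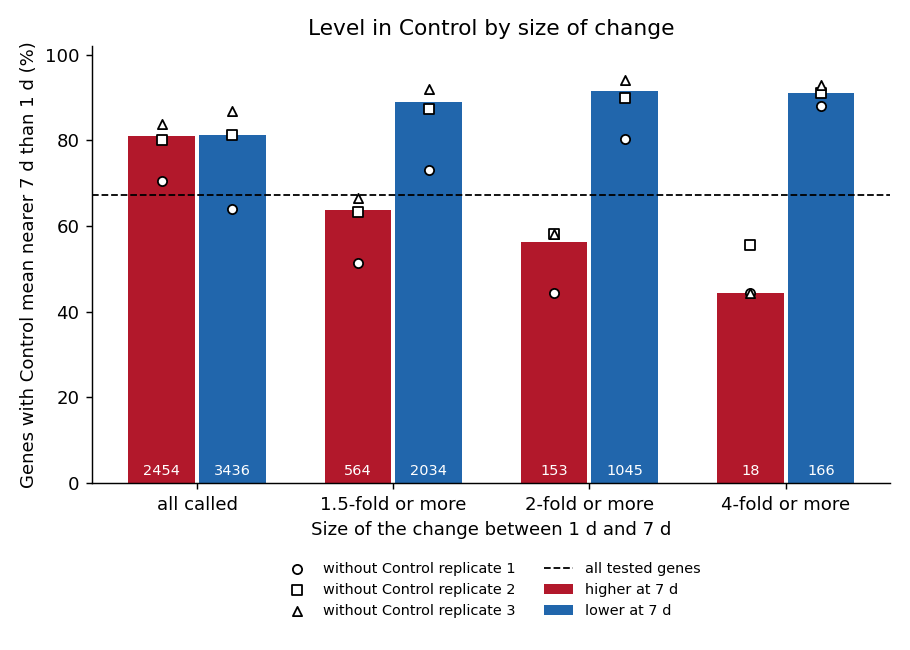
Share of called genes (%) whose Control mean lay nearer to the 7 d than to the 1 d mean on a log scale, by minimum size of change, for genes higher (red) and lower (blue) at 7 d; numbers in the bars are genes, and open symbols give the share without each Control library. The dashed line is the share over all tested genes, 67.1%; from 1.5-fold upward the blue bars lie above it and the red bars below it.

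In levels, the 1045 genes that fell at least 2-fold stood at a median log2 difference from the Control mean of 1.06 at 1 d and -0.34 at 7 d. Library by library, their median log2 CPM relative to the 1 d mean was -1.31, -1.34 and -1.39 at 7 d and -1.44, -1.08 and -0.72 in Control. The 3 libraries of 7 d lay within the span of the Control libraries only through Control replicate 1, and they lay below Control replicates 2 and 3. The 1 d libraries, at 0.04, 0.10 and -0.12, lay above all others. The order of 1 d and 7 d follows from the choice of genes, here and for the rises below. The call also favours a small spread within each lesion time, so that spread is not compared with Control. The 153 genes that rose at least 2-fold had medians of -0.66 at 1 d and 0.58 at 7 d from the Control mean. Their median relative to the 1 d mean was 1.17, 1.31 and 1.37 at 7 d and 0.86, 0.65 and 0.52 in Control. For these genes every Control library thus lay between the 2 lesion times. They were mostly weakly expressed, with a median of 3.22 CPM at 7 d, where the 2-fold falling genes had 11.1 CPM at 1 d.

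**Figure D4:**
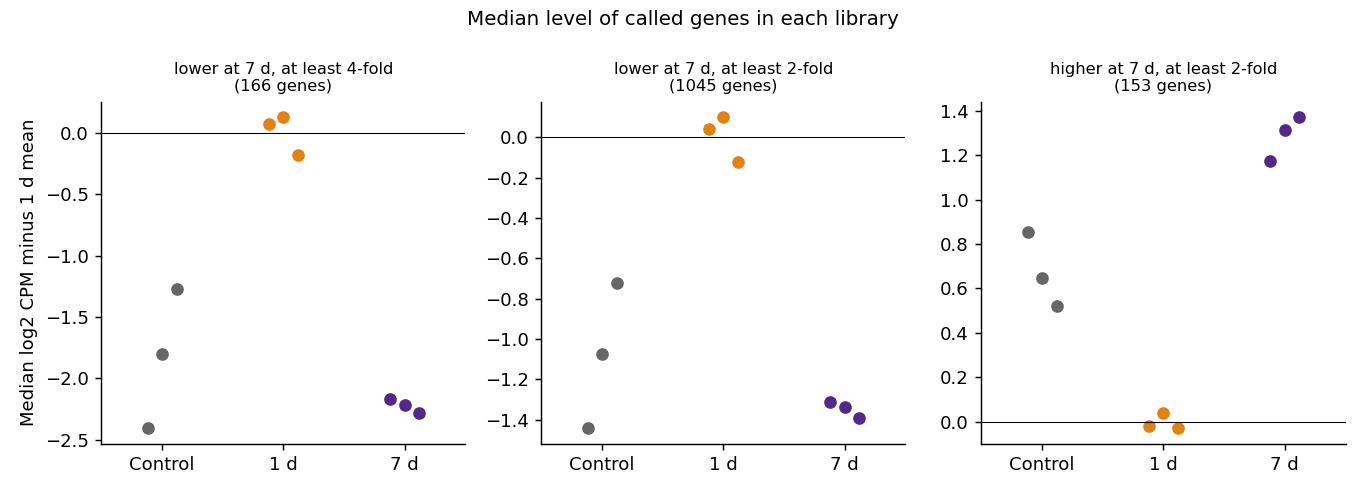
Median log2 CPM of 3 sets of called genes in each of the 9 libraries (points, in replicate order), relative to the mean of the 1 d libraries. In both falling sets the 7 d points lie above Control replicate 1 and below Control replicates 2 and 3. In the rising set the Control points lie between 1 d and 7 d. The order of 1 d and 7 d, and in part the small spread within each, follow from the choice of genes.

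A stricter view used the range of the 3 Control libraries. A called gene was taken as back in the Control range when its 3 libraries of 1 d all lay beyond that range on one side and its 7 d mean lay inside. This was so for 1202 of the rising genes (49.0%) and 1645 of the falling genes (47.9%), 2847 or 48.3% of all called genes, against 22.5% of all tested genes. A gene placed so tends to differ between the times, so a higher share among called genes is in part built in. Here and in the classes below, the rule itself fixes where each time lies relative to the Control range. The medians therefore give only the size of the differences. The returning rises had been lower than Control at 1 d by a median log2 difference of -0.36 and were at 0.00 at 7 d. They were abundant, with a median of 71.0 CPM in Control, and only 24 of them had moved at least 2-fold. The returning falls had been above Control at 1 d by a median of 0.68 and stood at -0.12 at 7 d, with a median of 17.8 CPM in Control, and 622 of them had moved at least 2-fold.

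The counts of returning genes moved most with Control replicate 1. Without that library they were 601 of the 2454 rises and 488 of the 3436 falls. Scaled by library totals alone, the returning rises numbered 738 of the 1803 rises called under that scaling, and the returning falls 2127 of 3892. The near-equal shares of the 2 directions therefore did not hold under these settings, and they differed by size of change. Below 1.5-fold 55.1% of the rises and 37.6% of the falls were back in the range, and from 2- to 4-fold 15.6% and 59.0%. The spread among Control libraries bears on these counts. The median SD of log2 CPM over all tested genes was 0.186 in Control, 0.139 at 1 d and 0.133 at 7 d. In Control it was 0.248 for the falling genes and 0.140 for the rising genes; the spread of these genes within the lesion times is not compared, since the call favours a small one. The part of the Control spread in the counts was not tested.

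Fewer genes left the Control range after 1 d. All 3 libraries of 7 d lay beyond the range with the 1 d mean inside it for 151 rising genes (6.15%) and 160 falling genes (4.66%), together 5.28% of called and 4.28% of tested genes, a share near the background. The emerging rises stood at median log2 differences of -0.03 (1 d) and 0.56 (7 d) relative to Control, and 23 of them had risen at least 2-fold. The emerging falls stood at 0.05 and -0.37, with 16 of at least 2-fold. The emerging rises were the weaker in expression, with a median of 16.0 CPM in Control against 57.3 CPM for the emerging falls. The emerging falls numbered 101 without Control replicate 3, 100 when replicate 2 of 1 d was left out, and 105 when only library totals were used.

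Some genes crossed the Control range between the times. In 344 falling genes all 1 d libraries lay above and all 7 d libraries below every Control library, and in 163 rising genes the reverse held. Relative to Control, the crossing falls had median log2 differences of 0.42 (1 d) and -0.33 (7 d), and the crossing rises -0.29 and 0.20. Over all tested genes 3.08% crossed in this way, a share that the called genes largely make up. Genes that stayed on one side of Control at both times and still changed between them were fewer. Among the falling genes 51 lay above Control at both times and 11 below it, and among the rising genes 31 lay above and 36 below. Together these 129 genes were 2.19% of the called genes, against 4.71% of all tested genes that lay on one side at both times. For the remaining 871 rising and 1225 falling genes, 35.6% of the called genes, the place relative to Control was not resolved by this rule, as for 65.4% of all tested genes.

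Each library was also placed on the line from the 1 d mean (0) to the 7 d mean (1) of log2 CPM. Over the falling genes the Control libraries lay at 1.06, 0.809 and 0.591, and over the rising genes at 0.766, 0.543 and 0.423. In both sets replicate 1 was the Control library most like 7 d and replicate 3 the one most like 1 d. Over the 166 genes that fell at least 4-fold the 3 values were 1.02, 0.851 and 0.721. Each lesion library, placed on a line made without it, lay between -0.0461 and 0.112 at 1 d and between 0.934 and 1.04 at 7 d over the falling genes. These genes were called from the same lesion libraries, so a small spread within each lesion time is in part set by the choice of genes. Over all tested genes the places were 0.122 to 0.237 at 1 d, 0.796 to 0.910 at 7 d and 0.551 to 0.954 in Control.

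Direction was related to abundance. Of the 200 most abundant genes in the lesion libraries (a mean of at least 545 CPM), 96 rose and 30 fell, so that 63.0% were called. Among the next 800 genes 280 rose and 173 fell. In ranks 1001 to 5000 the directions were nearly even, with 940 higher and 1002 lower. Past rank 10000 (below 11.8 CPM) 368 rose and 1080 fell, and 20.8% were called. The falls of at least 2-fold lay mostly in weakly expressed genes, 624 of 1045 past rank 10000 and 10 in the first 1000. So did the rises of that size, with 127 of 153 past rank 10000. For comparison, 6954 of all 16954 tested genes lay past that rank. Called changes in both directions were larger among weak genes. The median log2 fold change was -1.11 for falls and 0.823 for rises past rank 10000, against -0.351 and 0.375 in the first 200. How far the call and the filter set this was not tested. After cyclic loess normalization, which removes trends with abundance, 52 of the top 200 genes rose and 46 fell, and 269 of the top 1000 rose and 247 fell, so the excess of rises among abundant genes is largely lost under that scaling.

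**Figure D5:**
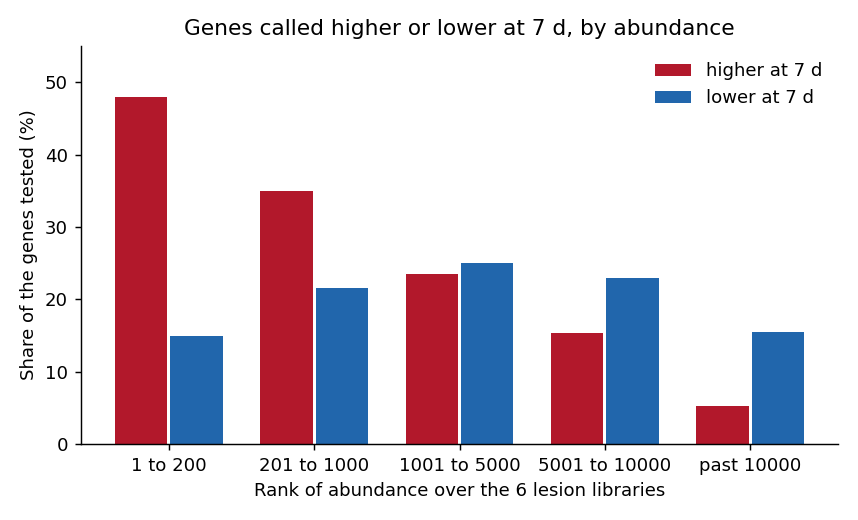
Share of tested genes (%) called higher (red) or lower (blue) at 7 d than at 1 d in 5 classes of abundance rank, from the most abundant (left). Rises make up 48.0% of the first class and 5.29% of the last, and falls exceed rises from rank 1001 on.

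The 20 most abundant genes took 8.58 to 8.72% of the counts of each 1 d library and 11.6 to 12.4% at 7 d. The 3 Control libraries held 12.3, 9.50 and 9.68%. Of these 20 genes 15 rose and 2 fell. The groups of the 2 lesion times did not overlap in this share, and replicate 1 alone of the Control libraries lay within the range of 7 d.

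Of the 1480 tested gene models with IDs outside Ensembl's naming, 138 rose and 169 fell, 20.7% in all, against 36.1% of the 15474 Ensembl genes. This difference was not tested. The median level was 2.32 CPM against 21.4 CPM, and of all genes past abundance rank 10000 20.8% were called, a share close to theirs. These models were 8.73% of the genes tested, and they held 6 of the 18 rises and 16 of the 166 falls of at least 4-fold. The 18 genes with a rise of at least 4-fold had a median coefficient of variation of 38.6% at 7 d. The 166 falls of that size had 22.0% at 1 d. The rises were also the weaker in expression, with a median of 1.95 CPM at 7 d against 5.16 CPM at 1 d for the falls. The part of the low level in their spread was not tested, and the call favours a small spread in both sets.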

How the data were processed

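RNA was measured in 9 libraries, 3 per group. The submitters' processing notes list DESeq2 1.16.1, featureCounts 1.5.0-p3 and HISAT2 2.0.5. Build, annotation and strand setting are not given in the sources used, so overlapping, antisense and near-identical genes may share reads. The authors deposited raw counts per gene (34784 rows, 32883 with Ensembl IDs), with no normalization.

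Genes were kept by filterByExpr on the 6 lesion libraries (16954 genes; the rest held 0.0871 to 0.124% of a lesion library's counts). TMM factors were computed against a lesion library, so that Control did not alter them. edgeR's quasi-likelihood test (glmQLFit, robust) was fitted with group alone (common biological coefficient of variation 0.154). The call threshold was an adjusted p of 0.05, two-sided. Log2 CPM used a prior count of 2, and distances to Control used 0.1 CPM. SE is the log2 fold change over the square root of F. The test was checked on simulated data. Replicates differed beyond sampling noise (chi-square per degree of freedom 7.07 to 40.7). Software was edgeR 4.0.16 and DESeq2 1.42.0 with limma 3.58.1 under R 4.3.3.

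The comparison, lists and alternatives were chosen with earlier results of these data known. The rule for genes given by ID took the 2 largest rises and falls among called genes with separated groups and at least 5 CPM, as laid down for the case of no symbols. Tests of gene lists were left out for lack of symbols. Classes by size, abundance and kind of ID were chosen after the data were seen.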

Additional observations from a re-analysis of the deposited data

How the results depend on the processing

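Over 18 alternatives the number of called genes lay between 4415 (without 7 d replicate 3) and 6166 (upper-quartile factors), within 1.5 times of 5890, and no gene called here was called in the opposite direction. DESeq2 called 5573 genes, limma-voom 5897, and a fit of all 9 libraries 4961. With all libraries thinned to 13338433 counts 5713 were called, and with Ensembl IDs only 5698; these 2 settings and those without a Control library were added after the data were seen. Replicate numbers showed no sign of pairing the lesion libraries. Deviations of same-numbered libraries from their group means correlated at -0.0550, -0.00925 and 0.0148 across genes, which are not independent. Those of differently numbered libraries correlated at -0.0432 to 0.0522. These few values cannot decide whether libraries were paired, since deviations within a group are tied to each other. With the replicate number as a block, 5294 genes were called. How far depth and spread limit the calls among weakly expressed genes was not tested.

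Counts set against the Control range moved more. Genes that rose and were back in the range (1202) numbered 738 scaled by library totals and 601 to 1226 with 1 library left out. The calls they are counted from also differed by setting, with 1803 rises and 3892 falls called when scaled by library totals. Genes that fell and were back (1645) numbered 488 to 1909 with 1 library left out and 2127 scaled by library totals. Falls out of the range only at 7 d (160) numbered 105 scaled by library totals and 100 to 204. The median of each gene list under each setting was not run, for lack of symbols.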
